A study of Homo sapiens with 6 samples.

Results

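The ATP-binding cassette (ABC) genes listed under the symbols ABCA to ABCG were examined in the breast cancer line MDA-MB-231, which is triple-negative and mesenchymal, with and without knockdown of the pseudouridine synthase PUS1. Every row of the deposited expression table whose symbol was ABC, a letter from A to G and a number was taken, which gave 46 of 60605 genes, 45 of them annotated as protein coding and 1, ABCC13, as a transcribed pseudogene. The family members TAP1, TAP2 and CFTR carry other symbols and were looked at separately. The shControl group held 3 libraries of cells with a negative control hairpin, and the shPUS1 group held 3 libraries of cells with a hairpin against PUS1. Both groups carried a lentiviral hairpin vector, which the methods describe as puromycin-resistant pLKO.1, no other alteration was labelled, and poly(A) RNA was sequenced. The labels number the libraries of each group as biological replicates 1 to 3. The methods describe selection with puromycin and no cloning step, and whether the replicates of a group came from separate selections is not stated in the paper's text, so the p-values measure the spread between these libraries.

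The library totals lay between 14241505 and 19625998 counts. PUS1 itself was at 2.57, 4.66 and 2.18 FPKM (fragments per kilobase of exonic length, scaled to the library total) in shControl replicates 1, 2 and 3, and at 1.13, 0.95 and 0.93 FPKM in shPUS1. All shPUS1 libraries were therefore below all shControl libraries, with a log2 fold change of -1.64 (SE 0.32, edgeR adjusted p = 0.0462). The adjusted p was 0.00311 without shControl replicate 2, 0.0905 without shControl replicate 1, and 0.208, 0.253 and 0.192 without shPUS1 replicates 1, 2 and 3. Of the markers of the line, VIM was at 286 to 498 FPKM and CD44 at 74.6 to 99.6 FPKM. ESR1, PGR, CDH1 and the leukocyte marker PTPRC were at or below 0.18 FPKM in every library, while ERBB2 lay between 4.93 and 6.91 FPKM and EPCAM between 2.21 and 3.12 FPKM. The library shControl replicate 2 stood apart, with correlations across genes (Pearson's r on log2 CPM, the count relative to the TMM-adjusted library total) of 0.951 and 0.952 to the other controls, where these had 0.981 to each other and the shPUS1 libraries 0.987 to 0.991. It was the highest or the lowest of the 6 libraries for 65.5% of the tested ABC genes and for 66.4% of all tested genes, and many values without it are given beside the results.

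ABC proteins share a nucleotide-binding domain that hydrolyses ATP, and in most subfamilies this domain drives membrane-spanning domains that carry lipids, peptides, metals, conjugates or drugs across a membrane. Subfamily A moves mainly lipids, subfamily B holds drug, peptide and mitochondrial transporters, subfamily C holds the multidrug resistance proteins and channel regulators, subfamily D serves peroxisomes and lysosomes, and subfamily G moves sterols and drugs. Subfamilies E and F have no membrane-spanning domain and act on ribosomes, and in cancer cells the family is best known for efflux pumps that lower the amount of a drug in the cell.

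Of the 46 ABC genes, 29 (63%) had enough counts to be tested, against 24.3% of all genes in the table. All genes include other gene types such as pseudogenes, while 45 of the 46 ABC genes are protein coding, so these shares cover unlike sets. Of the 46 ABC genes, 19 (41.3%) had a mean of at least 1 FPKM over the 6 libraries, the level called expressed here. Another 14 had some counts but too few for a test, and 3 (ABCC8, ABCC13 and ABCG5) had none in any library. The filter asks for counts in as many libraries as 1 group holds, so a gene can pass through the group where it is higher. For the 3 genes without counts, a count of 0 among the 102548851 counts of the 6 libraries allowed a level of up to 0.0293 CPM, a limit that covers counting error only. In subfamily A, 3 of 12 genes were expressed, and in subfamily B 4 of 9. Subfamily C had 5 of 12 expressed genes and subfamily D 3 of 4. The single member of subfamily E and the 3 members of subfamily F were all expressed, whereas none of the 5 genes of subfamily G reached a mean of 1 FPKM.

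Among the 46 listed genes, the members that are not transporters made up a large share of the summed FPKM. Summed per length, ABCE1 and the 3 ABCF genes held 53.7 ± 4.88% of the FPKM of all 46 genes in shControl and 53.0 ± 2.26% in shPUS1 (SD, n = 3 each), with single libraries between 49.1 and 58.8%. Subfamily D held 15.0 ± 1.43% of the summed FPKM in shControl and 13.0 ± 0.0855% in shPUS1, and subfamily C held 13.0 ± 1.44% and 16.9 ± 1.57%. Subfamily B held 9.84 ± 0.304% and 8.86 ± 0.338%, and subfamily A 8.10 ± 3.48% and 7.78 ± 0.463%. Subfamily G held 0.325 ± 0.0408% in shControl and 0.377 ± 0.058% in shPUS1. The peptide transporter genes TAP1 and TAP2, at means of 15.4 and 16.1 FPKM over the 6 libraries, are not in these sums. The shares of all subfamilies therefore hold for the listed symbols only and would differ with family members under other symbols. In the plot of summed FPKM the bar of shControl replicate 2 is the tallest, at 212 FPKM, where the other 5 libraries lay between 160.0 and 170.0. Its sum for subfamilies E and F was 125 FPKM, where the other libraries lay between 83.3 and 88.9.

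**Figure D1:**
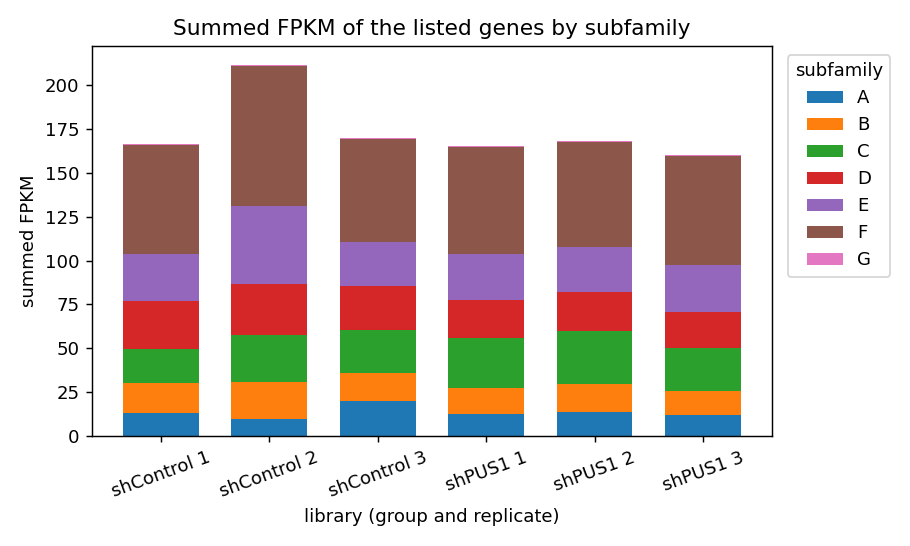
Summed FPKM of the 46 listed ABC genes (vertical axis, starting at 0) in each of the 6 libraries (horizontal axis), with colours for subfamilies A to G. Subfamily F is the largest part of each bar, subfamily G is hardly visible, and the bar of shControl replicate 2 reaches 212.

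The comparison of shPUS1 with shControl asked which ABC genes were higher or lower in the cells with the hairpin against PUS1. All shPUS1 libraries carry the same knockdown label, so an effect of the hairpin itself cannot be told apart from one of reduced PUS1. In edgeR's quasi-likelihood test with Benjamini-Hochberg adjustment over all genes tested, 0 of the 29 tested ABC genes were higher at an adjusted p under 0.05, beside 1.74% of all genes tested, and 1, ABCA1, was lower, beside 0.841%. At an unadjusted p under 0.05 there were 3 above and 5 below, 27.6% of the 29 genes, beside 25.5% of all genes. All shPUS1 libraries were above all shControl libraries for 4 ABC genes (13.8%), beside 18.8% of all genes, and below for 6 (20.7%), beside 17.3%. These shares lay near those of all genes. The median log2 fold change was -0.09 over the 29 genes and -0.03 over all genes tested, and the median absolute log2 fold change was 0.32 and 0.31. DESeq2 called 1 gene higher, ABCA5, beside 7.28% of all genes, and 1 lower, ABCA1, beside 5.68%. Without shControl replicate 2, ABCA5 and ABCC3 were higher, beside 9.8% of all genes, and ABCA1, ABCA2, ABCC6 and ABCD4 were lower, beside 8.79%.

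**Figure D2:**
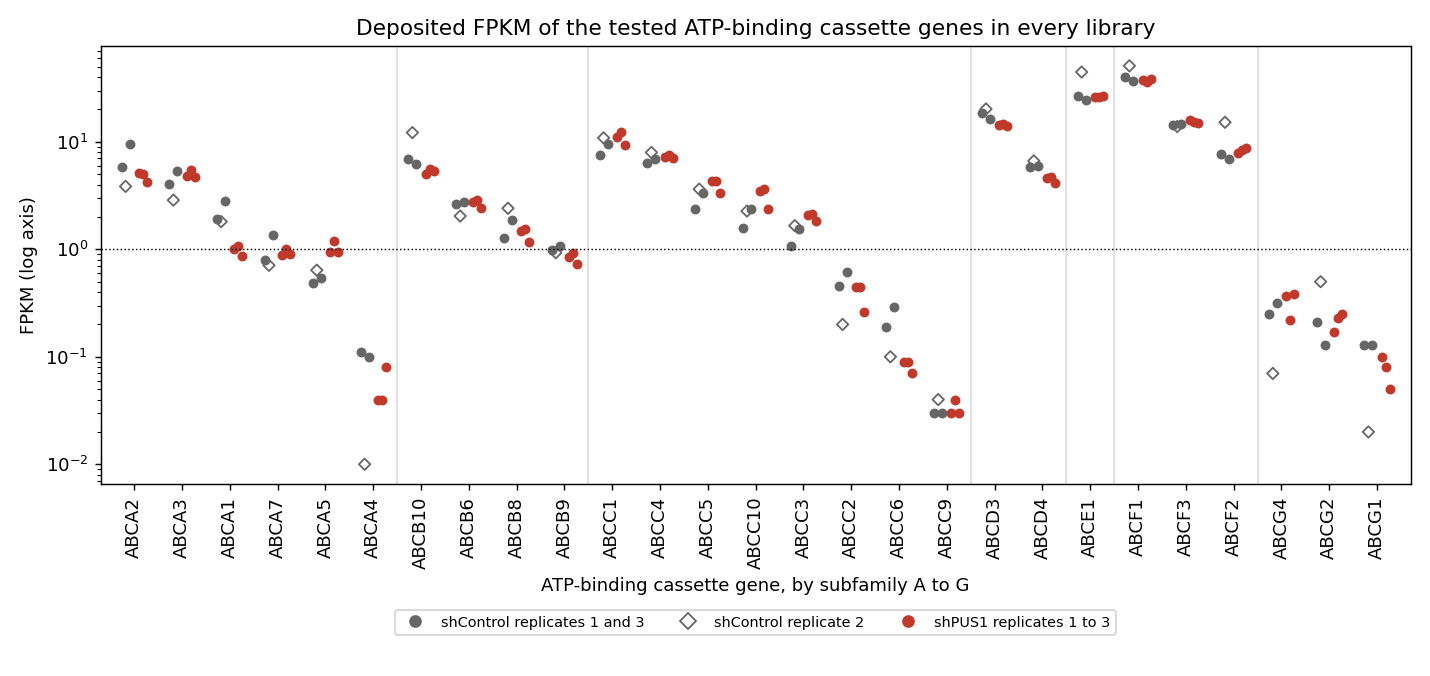
FPKM on a log axis (vertical) of 27 of the 29 tested ABC genes (horizontal, by subfamily and then by mean FPKM) in every library. Grey marks are shControl, with replicate 2 as an open diamond, red points are shPUS1, the dotted line is 1 FPKM, and the only gene whose difference passed the test, ABCA1, has its shPUS1 points between 0.86 and 1.08 and its shControl points between 1.81 and 2.79.

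ABCA1 (ENSG00000165029, chromosome 9, 104781006 to 104928155, minus strand) encodes the transporter that hands cholesterol and phospholipid to lipid-poor apolipoprotein A-I, the entry step of HDL formation. It was at 21.3, 21.2 and 30.7 CPM in shControl replicates 1, 2 and 3 and at 11.6, 12.3 and 9.80 CPM in shPUS1. The groups did not overlap, and the outlying control library sat at the level of replicate 1. In bulk RNA, fewer expressing cells and less RNA per cell cannot be told apart. The mean fell from 24.4 ± 5.49 to 11.2 ± 1.30 CPM (SD, n = 3 each), which left 46.2% of the shControl level, a log2 fold change of -1.12 (SE 0.20, adjusted p = 0.0418 in edgeR). The libraries held 325 to 451 ABCA1 counts each in shControl and 166 to 225 each in shPUS1. The annotation places AL359182.1 on the opposite strand within ABCA1, and 0% of the 100-base stretches of ABCA1 transcripts occur in another gene. The fold change lay between -1.21 and -0.92 with each library left out in turn, so its direction held, but the call did not always hold. The edgeR adjusted p was 0.00399 without shControl replicate 2 and 0.0497 without shControl replicate 3, but 0.0885 without shControl replicate 1 and 0.208, 0.224 and 0.189 without shPUS1 replicates 1, 2 and 3. With the replicate number as a block it was 0.119, and in DESeq2 it was 0.000116.

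The promoter of ABCA1, the one ABC gene that passed the test, is shown as RefSeq gives it for GRCh38.p14. The 250 bases end directly upstream of the start of transcription, at chr9:104928156-104928405, and are written along the minus strand. Capitals mark the GC boxes (GGGCGG), the E-box (CACGTG) between them, and the TATA box (TATAAA), which starts 31 bases before the start of transcription.
ABCA1: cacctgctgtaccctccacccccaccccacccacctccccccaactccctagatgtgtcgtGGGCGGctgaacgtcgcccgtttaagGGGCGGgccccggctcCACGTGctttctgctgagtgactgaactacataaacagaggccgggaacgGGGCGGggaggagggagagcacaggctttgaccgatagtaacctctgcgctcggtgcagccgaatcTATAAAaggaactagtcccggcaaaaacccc
Of all 35116 promoter windows of this length, 10.72% hold the TATA letters, 6.34% the E-box letters and 42.64% the GC box letters on either strand, and a match describes letters only.

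ABCA5 (ENSG00000154265, chromosome 17, 69244311 to 69327244, minus strand), a transporter of lysosomes and late endosomes, was the nearest to the threshold on the other side and was chosen for fuller description after its values were seen. It was at 6.35, 8.60 and 6.88 CPM in shControl and at 12.7, 15.7 and 12.6 CPM in shPUS1. The lowest shPUS1 library was above the highest shControl library, which was replicate 2. The log2 fold change was 0.91 (SE 0.20, 95% interval 0.45 to 1.37), with an edgeR adjusted p of 0.0564 that missed the threshold. It passed in DESeq2 (0.00229), without a filter on low counts (0.0288) and without shControl replicate 2 (0.00491), and lay between 0.0739 and 0.281 with any other library left out. In FPKM it was low, at 0.49 to 0.64 in shControl and 0.95 to 1.19 in shPUS1. The listed coordinates of ABCA5 reach 69327244, inside its RefSeq promoter window, so part of this window lies within the listed gene. The ABCA1 window lies outside its listed gene. The ABCA5 window, chr17:69327134-69327383 on the minus strand, is printed to set its base composition beside that of ABCA1. Capitals mark the GC box on the opposite strand (CCGCCC).
ABCA5: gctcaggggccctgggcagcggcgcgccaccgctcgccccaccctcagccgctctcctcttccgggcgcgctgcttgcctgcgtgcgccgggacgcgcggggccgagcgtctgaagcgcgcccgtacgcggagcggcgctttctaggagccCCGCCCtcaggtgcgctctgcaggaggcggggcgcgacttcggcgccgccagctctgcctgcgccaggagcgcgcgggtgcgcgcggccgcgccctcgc
G and C make up 79.2% of the ABCA5 window and 61.6% of the ABCA1 window, and the ABCA5 window holds neither the E-box nor the TATA letters. ABCA5 lies at the end of a run of 5 subfamily A genes on the minus strand of chromosome 17, with ABCA8, ABCA9, ABCA6 and ABCA10 between 68867289 and 69244846. None of the other 4 had more than 13 counts in a library. ABCA10 was also described after its values were seen, since its annotated start lies within the downstream end of ABCA5, on the same strand. ABCA10 had 3, 6 and 5 counts in shControl and 3, 10 and 13 in shPUS1.

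The other tested members of subfamily A did not pass the test. ABCA2, an endosomal and lysosomal lipid transporter known from brain, had the highest mean FPKM of the subfamily, with 5.85, 3.85 and 9.53 FPKM in shControl and 5.08, 4.98 and 4.19 FPKM in shPUS1. The controls of ABCA2 enclosed the shPUS1 values, and its log2 fold change was -0.40 (SE 0.28, edgeR adjusted p = 0.400), which became -0.65 when shControl replicate 2 was left out (adjusted p = 0.0415). ABCA3, which loads surfactant lipids into the lamellar bodies of lung, was at 4.07, 2.87 and 5.39 FPKM in shControl and 4.84, 5.51 and 4.69 FPKM in shPUS1. The ABCA3 groups overlapped, with a log2 fold change of 0.32 (95% interval -0.17 to 0.80) that was 0.13 without shControl replicate 2. ABCA7, a phospholipid transporter near 0.940 FPKM on average, had a log2 fold change of 0.00 (95% interval -0.60 to 0.60), or -0.16 without that library. ABCA4, the retinal flippase, had at most 14 counts in a library and a log2 fold change of -0.45, or -0.99 without shControl replicate 2 (adjusted p = 0.185).

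Subfamily B had 5 tested members, none past the test. ABCB10, a mitochondrial inner membrane transporter tied to haem synthesis, was at 6.93, 12.2 and 6.19 FPKM in shControl and 5.06, 5.55 and 5.41 FPKM in shPUS1. Its groups did not overlap, but shControl replicate 2 stood well above the other controls. The log2 fold change of ABCB10 was -0.65 (SE 0.27, edgeR adjusted p = 0.184), and it was -0.26 without shControl replicate 2 (adjusted p = 0.129). For ABCB6, a porphyrin transporter, the log2 fold change was 0.13 (adjusted p = 0.663), and for ABCB8, of the mitochondrial inner membrane, it was -0.39 (adjusted p = 0.369). Without shControl replicate 2 these values were 0.02 for ABCB6 and -0.13 for ABCB8. ABCB9, a lysosomal peptide transporter, had all its shPUS1 libraries below the controls, with a log2 fold change of -0.22 (adjusted p = 0.430). The counts of ABCB6 and ABCB9 are uncertain, since 42.4% and 21.5% of their 100-base stretches also occur in overlapping gene models, and their deposited counts were not all whole numbers.

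Subfamily C had 8 tested members, 6 with a fold change above 0 and 2 below, none past the test. ABCC1 (MRP1), an efflux pump for glutathione conjugates and several anticancer drugs, had the highest FPKM of the subfamily. It was at 7.59, 10.9 and 9.65 FPKM in shControl and 11.1, 12.5 and 9.43 FPKM in shPUS1. Of the shPUS1 libraries of ABCC1, replicate 3 lay inside the range of the controls, and the log2 fold change was 0.25 (SE 0.18, 95% interval -0.16 to 0.66, edgeR adjusted p = 0.407), or 0.39 without shControl replicate 2 (adjusted p = 0.0865). ABCC4 (MRP4), which exports cyclic nucleotides and prostaglandins, was at 6.38, 7.97 and 6.93 FPKM in shControl and 7.19, 7.53 and 7.06 FPKM in shPUS1. All shPUS1 values of ABCC4 lay inside the control range, with a log2 fold change of 0.05 (95% interval -0.26 to 0.37), or 0.17 without that library.

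ABCC10 and ABCC3 were chosen for fuller description after their values were seen, since both had an unadjusted p under 0.05 above the controls. ABCC10 (MRP7, ENSG00000124574, chromosome 6, 43427366 to 43450427), a drug and conjugate exporter, was at 12.6, 18.9 and 18.6 CPM in shControl and 28.4, 29.8 and 19.2 in shPUS1. The ABCC10 groups did not overlap, although shPUS1 replicate 3 was hardly above the controls, and the log2 fold change was 0.63 (SE 0.23, edgeR adjusted p = 0.15). ABCC3 (MRP3, ENSG00000108846, chromosome 17, 50634777 to 50692253), an exporter of glucuronides and bile salts, was at 1.07, 1.66 and 1.56 FPKM in shControl and 2.09, 2.15 and 1.85 FPKM in shPUS1. Its groups were also apart, with a log2 fold change of 0.53 (SE 0.21, edgeR adjusted p = 0.167). Leaving out shControl replicate 2 gave 0.67 for ABCC3 (adjusted p = 0.0264) and 0.72 for ABCC10 (adjusted p = 0.0541) on the log2 scale. ABCC5 (MRP5), another exporter of cyclic nucleotides, had overlapping groups and a log2 fold change of 0.37 (adjusted p = 0.284).

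**Figure D3:**
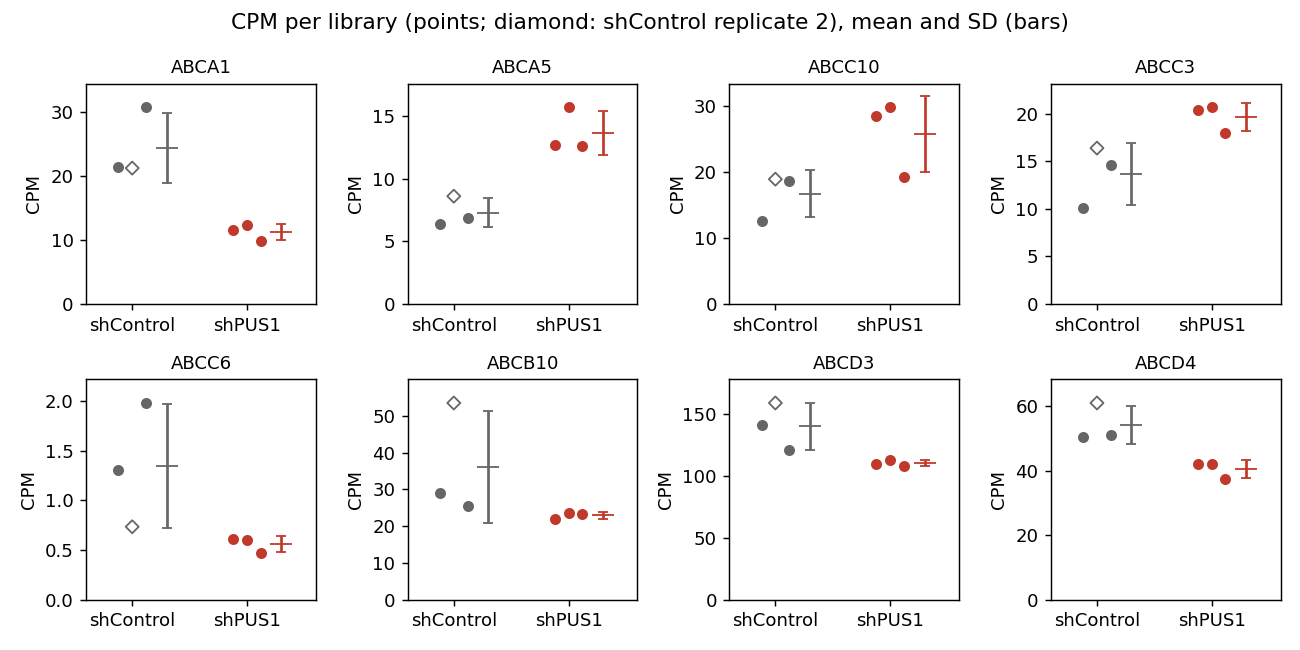
Counts scaled to the library total, as CPM (vertical axes, starting at 0) in every library for the 8 ABC genes with an unadjusted p under 0.05, with the mean and SD of each group (n = 3) as bars and shControl replicate 2 as an open diamond. In each panel the groups do not overlap, and for ABCB10 the diamond, at 53.5, stands far above the other controls at 29.1 and 25.6.

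ABCC6, a gene of liver and kidney that is mutated in pseudoxanthoma elasticum, had the largest fold change of the tested ABC genes on few counts. It had 20, 14 and 29 counts in shControl and 11, 11 and 8 counts in shPUS1. This was 1.31, 0.734 and 1.98 CPM in shControl and 0.612, 0.602 and 0.472 CPM in shPUS1. The groups were apart, the log2 fold change was -1.23 (SE 0.46, 95% interval -2.29 to -0.16) and the edgeR adjusted p was 0.153. When the lowest control, replicate 2, was left out, it was -1.54 (adjusted p = 0.0289). Of its 100-base stretches, 12.8% also occur in the pseudogenes ABCC6P1 and ABCC6P2, which had at most 18 counts in a library, and its neighbour on chromosome 16 is ABCC1. ABCC2 (MRP2), the pump of the bile canaliculus, was at 0.20 to 0.61 FPKM with a log2 fold change of -0.09 (95% interval -1.06 to 0.88), or -0.43 without shControl replicate 2. ABCC9, a sulfonylurea receptor subunit of potassium channels, had at most 14 counts in a library and a log2 fold change of 0.03, or 0.20 without that library.

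Subfamily D held the membrane transporter of highest level per length, ABCD3, with a mean of 16.4 FPKM, and its members ABCD3 and ABCD4 were lower in all shPUS1 libraries without passing the test. ABCD3 (PMP70), which brings branched-chain and long-chain acyl groups into peroxisomes, was at 141, 159 and 121 CPM in shControl and 110, 113 and 108 CPM in shPUS1. The shPUS1 values lay close together and below every control, with a log2 fold change of -0.35 (SE 0.13, edgeR adjusted p = 0.155). ABCD4, which takes part in the release of vitamin B12 from lysosomes, was at 5.78, 6.65 and 5.91 FPKM in shControl and 4.64, 4.71 and 4.15 FPKM in shPUS1. Its groups were apart as well, with a log2 fold change of -0.42 (SE 0.13, adjusted p = 0.113). Leaving out shControl replicate 2 gave -0.26 for ABCD3 (adjusted p = 0.103) and -0.34 for ABCD4 (adjusted p = 0.0455) on the log2 scale. ABCD2, another peroxisomal fatty acid transporter, had at most 4 counts in a library.

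ABCF1 and ABCE1, which act on ribosomes, had the highest mean FPKM of the family, and in both shControl replicate 2 was far above the other libraries. ABCE1, which splits ribosomes after termination, was at 26.5, 44.6 and 24.7 FPKM in shControl and 26.4, 25.9 and 26.8 FPKM in shPUS1. Apart from shControl replicate 2 the ABCE1 libraries were within a narrow band, with a log2 fold change of -0.27 (SE 0.24, edgeR adjusted p = 0.506) with that library and 0.08 (adjusted p = 0.542) without it. ABCF1, a factor in translation initiation and the most abundant gene of the family per length, was at 40.3, 51.0 and 37.0 FPKM in shControl and 37.3, 36.0 and 38.5 FPKM in shPUS1. The log2 fold change of ABCF1 was -0.18 (95% interval -0.55 to 0.18), and -0.01 without shControl replicate 2.

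ABCF3 differed from ABCE1 and ABCF1 in that shControl replicate 2 did not stand apart. It was at 14.2, 13.9 and 14.6 FPKM in shControl and 15.8, 15.4 and 14.9 FPKM in shPUS1. Its groups were just apart, with a log2 fold change of 0.13 (95% interval -0.11 to 0.38, edgeR adjusted p = 0.450). ABCF2, described after its values were seen, was at 7.64, 15.2 and 6.99 FPKM in shControl and 7.83, 8.31 and 8.73 FPKM in shPUS1, with a log2 fold change of -0.26 (adjusted p = 0.618) with all libraries and of 0.22 once shControl replicate 2 was left out (adjusted p = 0.163). The ABCF2 values are uncertain, since the table also lists the readthrough gene ABCF2-H2BE1, and 95.4% of the stretches of that gene occur elsewhere, mostly in ABCF2. Summed over both, the level was 64.3, 138 and 66.2 CPM in shControl and 77.5, 75.8 and 77.2 in shPUS1, so that replicate 2 remained the outlying value.

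The classical multidrug pumps were unequal in level. Of the 3, ABCB1 could not be tested, and ABCC1 and ABCG2 did not pass the test. ABCB1 (P-glycoprotein) had 5, 1 and 1 counts in shControl and 0, 8 and 5 counts in shPUS1, too few to be tested. ABCG2 (breast cancer resistance protein) was at 0.21, 0.50 and 0.13 FPKM in shControl and 0.17, 0.23 and 0.25 FPKM in shPUS1. The shPUS1 values of ABCG2 lay inside the control range, with a log2 fold change of -0.39 (SE 0.53, 95% interval -1.62 to 0.85, edgeR adjusted p = 0.672), and 0.38 without shControl replicate 2. ABCC1 was the pump with a level above 1 FPKM, as given above. ABCG4, a sterol transporter known from brain, was at 0.25, 0.07 and 0.32 FPKM in shControl and 0.37, 0.22 and 0.38 FPKM in shPUS1, with overlapping groups and a log2 fold change of 0.68 (95% interval -0.56 to 1.92), or 0.24 without shControl replicate 2. ABCG1, which passes cholesterol to HDL and was described after its values were seen, had 12, 2 and 11 counts in shControl and 11, 9 and 5 counts in shPUS1. The log2 fold change of ABCG1 was -0.18 (adjusted p = 0.889), or -0.71 without shControl replicate 2. The intervals of ABCG1, ABCG2 and ABCG4 were wide, and at these counts a difference within them was not detectable.

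**Figure D4:**
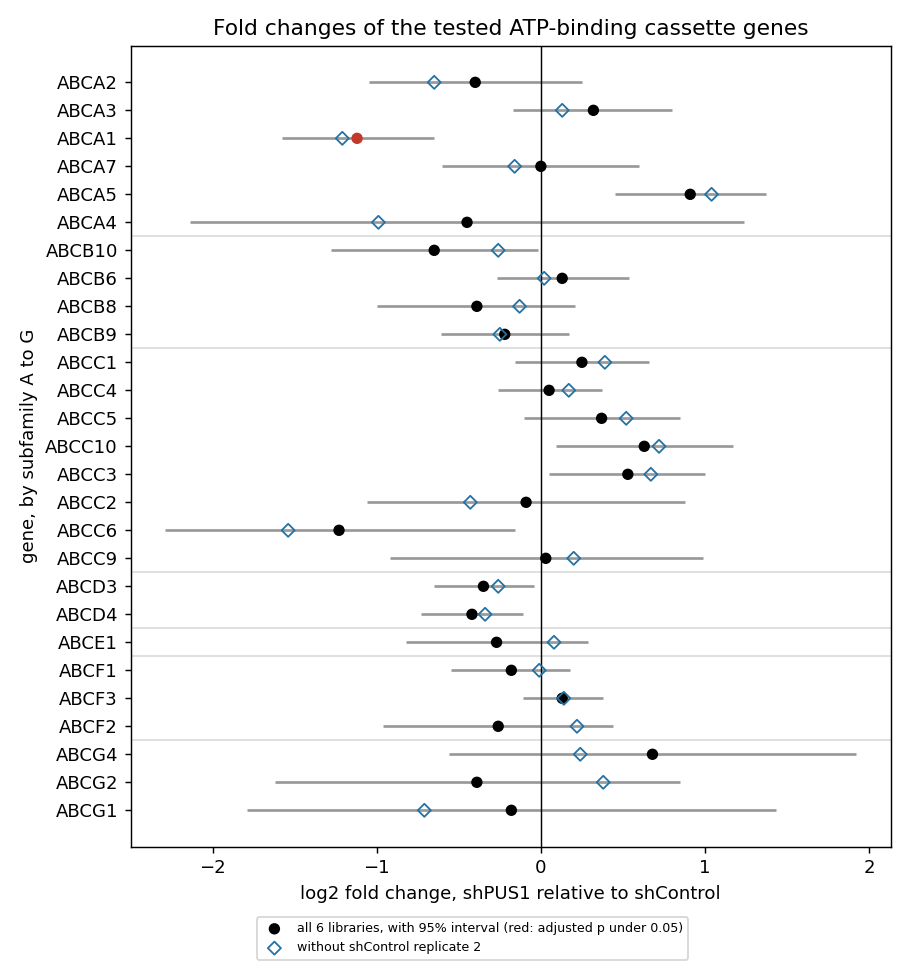
Log2 fold change of shPUS1 relative to shControl (horizontal axis) for 27 of the 29 tested ABC genes (vertical axis, by subfamily), with the 95% interval from edgeR as a line. Filled points use all 6 libraries, open diamonds leave out shControl replicate 2, and ABCA1, at -1.12, is the red point whose adjusted p was under 0.05.

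The ABC genes with counts that could not be tested were all near the detection limit. In subfamily A these were ABCA10 (highest count in a library 13), ABCA9 (4), ABCA8 (3), ABCA6 (2), ABCA12 (1) and ABCA13 (1). In subfamily B they were ABCB1 (8), ABCB4 (4), ABCB11 (2) and ABCB5 (1), of which ABCB4 and ABCB11 serve bile formation. The others were ABCC11 (3), ABCC12 (1), ABCD2 (4) and ABCG8 (1), the last being the partner of ABCG5 in the sterol transporter of liver and gut.

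Base composition at the promoters is given as a description. RefSeq windows of 250 bases before the start were at hand for 35 of the 46 genes. Averaged over the windows of a gene, the median GC content was 67.6% (range 45.6 to 80.4) for the 23 tested genes and 45.6% (range 27.4 to 62.8) for the 12 others, where the median over all single promoter windows was 58.0%. Over the 53 windows of these genes, some genes having several, the GC box letters GGGCGG were in 25 windows, beside 42.64% of all windows. The E-box letters CACGTG were in 9, beside 6.34%, and the TATA letters TATAAA in 6, beside 10.72%. Windows of a gene can overlap, and overlapping windows of ABCG2 hold the same E-box and GC boxes. The antioxidant response element TGACNNNGC was in 9 of the 53 windows and in 10.91% of all windows, and its genes, such as ABCC4 and ABCD4, lay on both sides of 0 in fold change.

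Genes that work with the ABC proteins were read from lists written from general knowledge. Of the cholesterol efflux and liver X receptor genes around ABCA1, 15 were tested, 0 were higher and 1 was lower, with a median log2 fold change of 0.07. The lower gene was SREBF1, the lipogenic transcription factor, at 5.36, 7.75 and 5.95 FPKM in shControl and 2.61, 2.58 and 2.37 FPKM in shPUS1 (log2 fold change -1.32, edgeR adjusted p = 0.0248). SREBF1 did not overlap between groups. Its adjusted p was 0.000605 without shControl replicate 2 and 0.0449 without shControl replicate 3, but 0.0681 without shControl replicate 1 and 0.160, 0.208 and 0.163 without shPUS1 replicates 1, 2 and 3. At an unadjusted p under 0.05 in edgeR this list had 3 genes, beside 25.5% of all genes tested. DESeq2 called SCARB1 and SREBF1 lower and 0 higher, beside 5.68% and 7.28% of all genes. Without shControl replicate 2 this list had 1 higher and 6 lower genes, at a setting that called 9.8% of all genes higher and 8.79% lower.

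Of the xenobiotic receptors and drug-metabolizing enzymes, 15 were tested, 1 was higher and 0 were lower, with a median log2 fold change of 0.05. The higher gene was EPHX1, the microsomal epoxide hydrolase, at 17.3, 12.5 and 17.2 FPKM in shControl and 30.0, 26.9 and 31.3 FPKM in shPUS1 (log2 fold change 0.94, edgeR adjusted p = 0.0341). EPHX1 was thus apart between groups. Its adjusted p was 0.00308 without shControl replicate 2 and 0.0466 without shControl replicate 3, but 0.0859 without shControl replicate 1 and 0.185, 0.208 and 0.180 without shPUS1 replicates 1, 2 and 3. At an unadjusted p under 0.05 in edgeR this list had 4 genes, beside 25.5% of all genes tested. DESeq2 called CYP1A1 and EPHX1 higher and 0 lower, beside 7.28% and 5.68% of all genes. Leaving out shControl replicate 2 gave 3 higher genes in this list, beside 9.8% of all genes. The receptors PXR (NR1I2) and CAR (NR1I3), known inducers of ABC pumps, were at 0 counts and at most 20 counts in a library.

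In the other lists edgeR called 0 genes in either direction with all 6 libraries. Their counts at an unadjusted p under 0.05 stand beside 25.5% of all genes tested, those of DESeq2 beside 7.28% higher and 5.68% lower, and those of edgeR without shControl replicate 2 beside 9.8% higher and 8.79% lower. Of the glutathione genes, whose product and conjugates subfamily C exports, 12 were tested, 3 had an unadjusted p under 0.05 and the median was 0.15. The smallest adjusted p was that of the cystine transporter gene SLC7A11 (log2 fold change 0.64, adjusted p = 0.0887), and DESeq2 as well as edgeR without shControl replicate 2 called the same 3 genes higher, GCLC, GCLM and SLC7A11. Of the peroxisomal genes, 17 were tested, 5 had an unadjusted p under 0.05 and the median was -0.04, with EHHADH nearest to the threshold (log2 fold change -0.76, adjusted p = 0.103). DESeq2 called 0 of the peroxisomal genes, and edgeR without shControl replicate 2 called 1 higher and 2 lower.

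Of the mitochondrial haem and iron-sulfur genes, the partners of ABCB6, ABCB8 and ABCB10, 18 were tested, 6 had an unadjusted p under 0.05 and the median was -0.22, beside -0.03 for all genes. FECH, the ferrochelatase that completes haem, had a log2 fold change of -0.98 (edgeR adjusted p = 0.0562), DESeq2 called 3 of these genes lower, and edgeR without shControl replicate 2 called 1 higher and 6 lower. Of the ribosome recycling and rescue genes around ABCE1, 14 were tested, 7 had an unadjusted p under 0.05 and the median was 0.07. For EIF2AK4, the gene of the ribosome-sensing kinase GCN2, the log2 fold change was 0.42 (edgeR adjusted p = 0.0837). DESeq2 and edgeR without shControl replicate 2 called 3 of these genes higher, EIF2AK4, GSPT1 and ZNF598. At an unadjusted p under 0.05 in edgeR, MCTS1, DENR, EIF2D and EIF2S3 were lower, with log2 fold changes of -0.39, -0.53, -0.34 and -0.31. Of the potassium channel pores that pair with ABCC8 and ABCC9 only KCNJ11 had enough counts (log2 fold change 0.48, adjusted p = 0.669), and its fold change was -0.06 without shControl replicate 2. The peptide transporter genes TAP1 and TAP2, family members under other symbols, had log2 fold changes of 0.11 and -0.33 (adjusted p = 0.710 and 0.496), 0 of them at an unadjusted p under 0.05, and CFTR had at most 4 counts in a library. Both directions turned without shControl replicate 2, with -0.06 for TAP1 (adjusted p = 0.697) and 0.11 for TAP2 (adjusted p = 0.503).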

How the data were processed

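Poly(A) RNA of MDA-MB-231 cells from 3 shControl and 3 shPUS1 libraries was sequenced in paired-end mode on an Illumina NovaSeq. Alignment with HISAT2 and counting with HTSeq 0.6.1 are named in the submitters' processing notes, and the genome build, annotation, strandedness and treatment of multi-mapped reads are not given in the sources used here. The table deposited by the authors holds, per gene and library, estimated counts that are not normalized, 29.8% to 31.8% of them not whole where above 0. The FPKM deposited by the authors equalled the count per kilobase of listed exonic length and library total to within 0.0051. No per-sample column was left out.

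Whole-number rounding of the counts came before filterByExpr (14748 genes kept) and TMM scaling (factors 0.973 to 1.032). Groups were compared in R 4.3.3 by edgeR 4.0.16 with glmQLFTest, using Benjamini-Hochberg adjustment over all genes tested and a threshold of 0.05. CPM used the TMM-scaled totals, and the log2 CPM of the library correlations a prior count of 2. Totals were 14241505 to 19625998 counts, and limits from counts cover counting error only. The alternatives used DESeq2 1.42.0 and limma 3.58.1, and Python 3.11.15 with pandas 2.3.3 and matplotlib 3.10.9 for the rest. The test was tested on simulated data without an outlying library. The changes put in were larger than any ABC fold change found with all 6 libraries. They were put only into genes above a minimum mean CPM. ABCA4, ABCC6, ABCC9, ABCG1, ABCG2 and ABCG4 lay below this minimum, so the simulation does not cover changes in such genes. Its outcome is not reported here. Antisense overlaps cannot be told apart without strand.

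The single values of 2 of the 29 tested members are not reported here. The members and lists were chosen with earlier results of these data known. Values in every library are given for members past the threshold, the 2 members of highest mean FPKM in each subfamily, ABCB1, ABCC1 and ABCG2, and members whose log2 fold change was at least 1 in size. Other tested members are given by fold change or range, except the members said to be described after their values were seen. Coordinates are those of the deposited table, whose 46 ABC genes all have their identifier in GENCODE 29 (GRCh38), 12 with the same ends. For shared sequence, each transcript was cut into overlapping stretches of 100 bases, which were looked up in all other genes. Promoters come from RefSeq (GRCh38.p14).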

Additional observations from a re-analysis of the deposited data

How the results depend on the processing

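Of 385 fold changes recomputed for 27 of the tested genes, 348 kept their direction and side of the threshold, 8 lost the call, 7 gained it and 22 turned direction. The count of ABC genes called higher was 0 in edgeR with all libraries and became 1 with DESeq2, 1 without a filter on low counts, 3 at an unadjusted p, and 0 to 2 with each library left out in turn. The count called lower was 1 and became 0 with limma on log2(FPKM + 1) over genes with a mean of at least 1 FPKM, 0 with limma on log2(FPKM + 0.1), 0 with limma on log2(FPKM + 1) without that filter, 0 with a replicate block, 5 at an unadjusted p, and 0 to 4 with each library left out. Over all genes, edgeR called 256 higher and 124 lower, DESeq2 1073 and 837, edgeR without shControl replicate 2 1483 and 1330, and without shPUS1 replicate 3 0 and 0, with 2581 at an unadjusted p under 0.05. The cause of these differences was not tested.

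The fold changes that turned direction in some setting belonged to 8 genes. That of ABCA7, -0.00, was 0.00 with DESeq2, with its size factors and without a filter, 0.10 with quantile normalization, 0.05 with a replicate block and -0.16 to 0.31 with a library left out. That of ABCC2, -0.09, was 0.05 with quantile normalization and -0.43 to 0.24 with a library left out, and that of ABCC9, 0.03, was -0.07, -0.00 with limma on FPKM without a filter, and -0.15 to 0.20. With a library left out, ABCC4 lay between -0.03 and 0.17, ABCE1 between -0.44 and 0.08, ABCF2 between -0.48 and 0.22, ABCG1 between -0.71 and 0.20, and ABCG2 between -0.75 and 0.38. Libraries with the same number had residual correlations of -0.05, -0.03 and -0.19. With 3 libraries per group and shControl replicate 2 standing apart, these values cannot decide whether the numbers pair the libraries. The replicate block left 18 genes higher and 0 lower over all genes, with 2815 at an unadjusted p under 0.05.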
